A study of Mus musculus with 4 samples.

Results

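The genes of the replication-linked histone clusters, named Hist1 to Hist4, were examined in bone marrow-derived macrophages (BMDMs). They were chosen by symbol alone, which took in testis forms such as Hist1h1t and genes marked -ps such as Hist2h3c2-ps. The members were all probes of the array whose gene symbol began with Hist1h, Hist2h, Hist3h or Hist4h, which gave 54 of 55681 non-control probes and 49 of 23212 genes with a symbol. Where a gene had more than 1 probe, the probe with the highest mean signal over the arrays was used. By class, 6 genes encoded the linker histone H1, 14 encoded H2A, 12 encoded H2B, 8 encoded H3 and 9 encoded H4. By position, 36 lay in the Hist1 cluster on chromosome 13, 9 in the Hist2 cluster on chromosome 3, 3 in the Hist3 cluster on chromosome 11 and 1, Hist4h4, on chromosome 6.

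RNA from 4 cultures was hybridized to 1-colour Agilent arrays of the mouse genome on the same slide, at 1 array for each condition. All BMDMs came from C57BL/6J mice aged 10 weeks. Marrow cells were grown for 6 days with L929 supernatant and then stimulated for 2 days. Wild-type BMDMs were given IL-4 at 50 ng/ml (M2), the same IL-4 together with 250 nM of Torin1, an inhibitor of the kinase mTOR (Torin1-treated), or IFN-γ at 20 ng/ml with LPS at 100 ng/ml (M1). Lamtor1-deficient BMDMs, labelled p18 (2400001E08Rik) -/-, were given IL-4 as the M2 cells were. Lamtor1 is a lysosomal scaffold protein through which amino acids activate mTORC1. Per the methods of the study, the deficient mice carried Lamtor1 flox/flox alleles and 1 copy of LysM-Cre, which is active in myeloid cells. The Lamtor1 probe had a normalized signal of 66.3 in M2, 74.96 in Torin1-treated, 51.2 in M1 and 1.55 in Lamtor1-deficient BMDMs, which left 2.34% of the M2 signal in the last.

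Core histones H2A, H2B, H3 and H4 form the protein spool of the nucleosome, and H1 binds the DNA between nucleosomes. Cells make most of their histones in S phase, from clustered genes with no introns. The mRNAs of these genes end in a conserved stem-loop in place of a poly(A) tail, and the stem-loop binding protein Slbp carries them through processing and translation. Replacement histones such as H3.3 are made outside S phase from ordinary polyadenylated mRNA, and some clustered histone genes also give polyadenylated transcripts in cells that leave the cell cycle. The labelling here started from a primer of oligo-dT, which anneals to poly(A). The share of each histone signal that came from polyadenylated RNA was not tested.

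Many of these genes are near-identical copies, and the probe sequences show what the array could tell apart. Each probe is 60 bases long and written in the sense of the mRNA, with the mm9 position of the array annotation. The first set reads the last codons of the H2A genes and is shown because copies on chromosomes 13 and 3 differ there by a few bases. Capitals mark bases that differ from the Hist1h2ah probe where the probes overlap. The Hist1h2ah probe lies at chr13:22127035-22127094, Hist1h2af at chr13:23626113-23626172, Hist1h2ak at chr13:21845304-21845363, Hist1h2an at chr13:21878695-21878754 and Hist2h2aa2 at chr3:96049837-96049896.
Hist1h2ah: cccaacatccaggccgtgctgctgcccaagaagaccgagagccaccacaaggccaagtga
Hist1h2af: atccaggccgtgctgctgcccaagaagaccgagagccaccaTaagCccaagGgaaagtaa
Hist1h2ak: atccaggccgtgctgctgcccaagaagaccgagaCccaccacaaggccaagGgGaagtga
Hist1h2an: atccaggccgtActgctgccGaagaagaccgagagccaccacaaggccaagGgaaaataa
Hist2h2aa2: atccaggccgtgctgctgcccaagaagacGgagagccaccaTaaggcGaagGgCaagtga
The probes of Hist1h2af, Hist1h2ak and Hist1h2an each differed from that of Hist1h2ah at 3 of 54 overlapping bases, and that of Hist2h2aa2 at 5 of 54. The longest identical run was 42 bases, between the probes of Hist1h2ah and Hist2h2ac. The array annotation listed 4 RefSeq genes for the Hist1h2ah probe.

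The second set reads the coding sequence of H4 and is shown because these copies, too, differ by a few bases. Capitals mark bases that differ from the Hist1h4j probe where the probes overlap. The Hist1h4j probe lies at chr13:21826989-21827048, Hist1h4d at chr13:23673515-23673574, the second probe of Hist1h4k at chr13:21842279-21842338 and Hist1h4c at chr13:23790223-23790282.
Hist1h4j: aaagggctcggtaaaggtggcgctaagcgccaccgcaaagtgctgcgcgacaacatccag
Hist1h4d: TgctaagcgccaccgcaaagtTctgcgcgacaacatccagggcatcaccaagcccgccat
Hist1h4k: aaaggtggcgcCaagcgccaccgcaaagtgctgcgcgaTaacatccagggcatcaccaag
Hist1h4c: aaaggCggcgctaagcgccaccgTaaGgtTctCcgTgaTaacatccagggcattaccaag
The Hist1h4d probe differed from that of Hist1h4j at 2 of 40 overlapping bases, the Hist1h4k probe at 2 of 48 and the Hist1h4c probe at 7 of 48.

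Probes of 6 members include the stem-loop itself. A match to the histone stem-loop consensus of 16 bases was found in 7 of the 55681 probes in the sense direction (0.0126%), and 6 of these were histone members. The stem-loop is shown in capitals with its flanks, because it is the feature that sets these mRNAs apart. The stretches lie at chr13:23853756-23853779 (Hist1h3a), chr13:23627753-23627778 (Hist1h3g), chr13:21874784-21874809 (Hist1h3i), chr13:21903993-21904018 (Hist1h4m), chr3:96049950-96049975 (Hist2h2aa1) and chr3:96074089-96074114 (Hist2h2bb).
Hist1h3a: ccaaaGGCTCTTTTCAGAGCCaca
Hist1h3g: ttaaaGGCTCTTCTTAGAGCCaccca
Hist1h3i: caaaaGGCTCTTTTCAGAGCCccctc
Hist1h4m: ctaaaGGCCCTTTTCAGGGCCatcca
Hist2h2aa1: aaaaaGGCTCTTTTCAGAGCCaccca
Hist2h2bb: caaaaGGCTCTTTTCAGAGCCacttt
The poly(A) signal AATAAA was found in 10.1% of all probes and in the probes of 2 members, Hist1h2ag and Hist3h2ba. The part of the Hist3h2ba probe that holds it, at chr11:58762997-58763023, is shown because this gene had the largest ratios of its class in Lamtor1-deficient and Torin1-treated BMDMs.
Hist3h2ba: cataatggtattAATAAAtttggttca

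Of the 49 genes, 40 were well above background on all 4 arrays by the scanner software's own call, 7 on some arrays and 2, Hist1h1d and Hist2h2ab, on none. Signals are given as normalized signal, which is the processed signal divided by the array's 75th percentile. Levels of different probes are not comparable, so each gene is compared only with itself. The summed signals of marker lists, given at the end, weigh the brightest probe most. Differences are log2 ratios to the M2 array. The sole measure of error is technical, from probes spotted at least 8 times on each array, and gave an SD of 0.12 for a log2 ratio of Lamtor1-deficient to M2, 0.13 for Torin1-treated to M2 and 0.15 for M1 to M2. For dim probes these SDs were 0.34, 0.44 and 0.40. There were no replicates, so no test was possible, and the 3 comparisons share the M2 array.

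In Lamtor1-deficient BMDMs the histone genes lay below M2 more often than above it. At least 2-fold lower signals were found for 14 of 49 genes (28.6%), against 8.74% of all 23192 genes measured on both arrays. At least 2-fold higher signals were found for 0 of 49, against 8.92% of all genes. The median log2 ratio was -0.33, against 0.04 over all genes, and 36 of 49 genes were below 0. Among the 40 members well above background on both arrays, 11 were at least 2-fold lower and 0 higher, against 7.75% and 7.88% of all such genes.

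In Torin1-treated BMDMs the shares of histone genes past 2-fold lay near those of all genes. At least 2-fold higher signals were found for 5 of 49 genes (10.2%), against 14.3% of all 23187 genes measured on both arrays, and lower signals for 9 of 49 (18.4%), against 11.9%. The median log2 ratio was 0.06, against -0.05 over all genes. With each array shifted to its median, 3 were higher and 13 lower, against 10.0% and 15.8% of all genes. With the percentile taken over bright probes only, 7 were higher and 8 lower, against 16.2% and 10.72%. Among the 42 members well above background on both arrays, 4 were higher and 6 lower, against 12% and 13.2% of all such genes.

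In M1 BMDMs, at least 2-fold higher signals were found for 22 of 49 genes (44.9%), against 30.7% of all 23202 genes, and lower signals for 4 (8.16%), against 19.4%. The median log2 ratio was 0.89. All genes together had a median of 0.74 on this scale, on which the 75th percentile was 287 for M1 and 595 for M2. Among genes well above background on both arrays, the median was 0.08 for all genes and 0.85 for the members. Of the 42 members well above background on both arrays, 16 were higher and 3 lower, against 25.1% and 25.4% of all such genes. Relative to the median of all 23202 genes, 12 members were at least 2-fold higher and 6 lower. A shift of each array to its median put 12 higher and 7 lower, against 15.7% and 31.9% of all genes. M1 ratios below are therefore to be read against 0.74, or against 0.08 for genes well above background on both arrays.

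**Figure D1:**
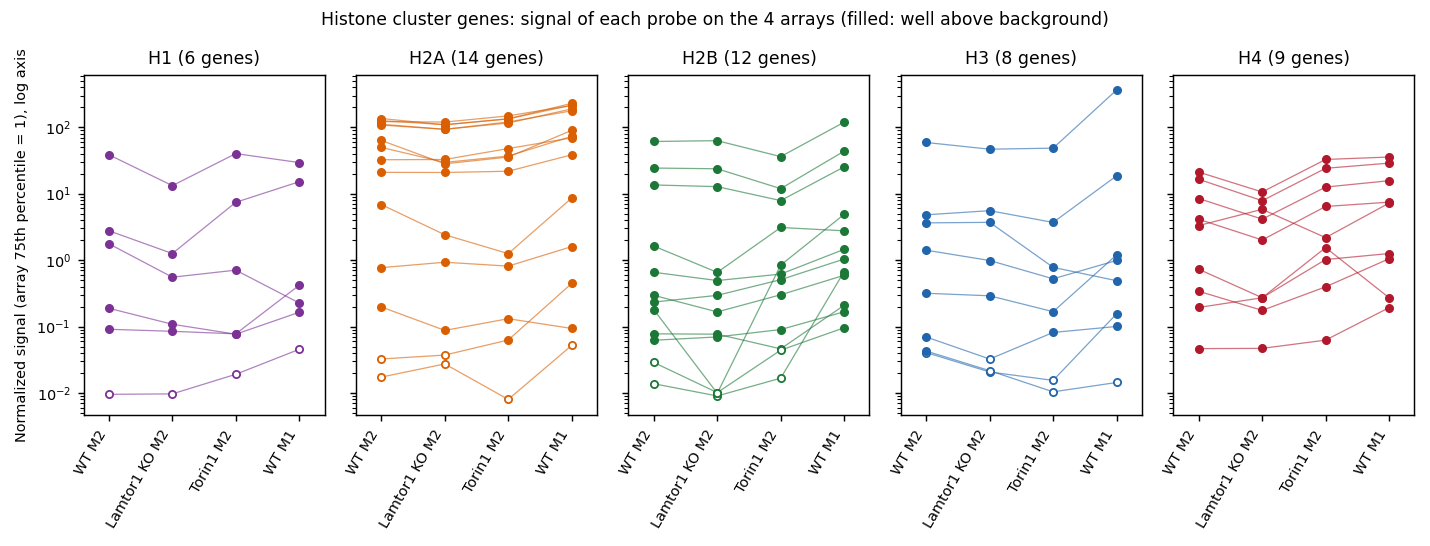
Normalized signal (log axis, array 75th percentile = 1) of each of the 49 histone cluster genes on the 4 arrays, by class, with 1 line for each gene and filled points where the probe was well above background. The M1 array was the highest of the 4 for 40 genes on this scale (81.6%, against 51.9% of all genes) and for 21 with arrays shifted to their median (42.9%, against 24.1%), and among the IL-4 arrays 8 of 9 H4 genes were highest in Torin1-treated BMDMs, against 35.8% of all genes (7 of 9 and 25% with that shift).

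Ranked within each gene, the highest of the 4 signals was on the M1 array for 40 of 49 genes (81.6%), against 51.9% of all 23166 genes, and for 21 (42.9%) with arrays shifted to their median, against 24.1% of all genes. Among the 3 IL-4-stimulated cultures, the lowest signal was in Lamtor1-deficient BMDMs for 26 genes, in Torin1-treated BMDMs for 15 and in M2 for 8 (53.1%, 30.6% and 16.3%), against 21.9%, 45.1% and 33% of all genes. With that shift the counts were 21, 20 and 8 (42.9%, 40.8% and 16.3%), against 15.8%, 56.5% and 27.8% of all genes. Among members well above background on all 4 arrays, Lamtor1-deficient BMDMs were the lowest for 9 of 12 H2A (5 with that shift) and 6 of 9 H4 genes, and Torin1-treated BMDMs for 4 of 5 H3 genes. Of all 12806 genes bright on the 4 arrays, Lamtor1-deficient BMDMs were the lowest for 24.9% and Torin1-treated BMDMs for 40.8% (16.4% and 56.1% with that shift). These ranks count differences within the technical error too, such as that of Hist3h2a.

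Single linker histone genes differed in direction between the treatments. Their median log2 ratio was -0.97 in Lamtor1-deficient, -0.09 in Torin1-treated and 1.00 in M1 BMDMs. Over the other settings the Torin1 median lay between -0.33 and 0.01. The M1 value was -0.20 among the 5 members well above background on both arrays. None of the H1 probes shared a run of 20 bases with another member's probe. Hist1h1c, which encodes H1.2, had a normalized signal of 38.6 in M2, 13.2 in Lamtor1-deficient, 40.1 in Torin1-treated and 29.4 in M1 BMDMs. Its level in Lamtor1-deficient BMDMs was 2.92-fold lower than in M2, while the Torin1-treated culture lay within the technical error of M2. Hist1h1b, which encodes H1.5, had 1.76 in M2, 0.554 in Lamtor1-deficient, 0.707 in Torin1-treated and 0.227 in M1 BMDMs. It was lower than M2 on all 3 arrays, by 3.18-fold, 2.49-fold and 7.78-fold. Hist1h1e, which encodes H1.4, had 2.77 in M2, 1.26 in Lamtor1-deficient, 7.42 in Torin1-treated and 15.1 in M1 BMDMs. It was 2.20-fold lower in Lamtor1-deficient BMDMs, 2.68-fold higher in Torin1-treated BMDMs and 5.47-fold higher in M1.

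Hist1h1a, which encodes H1.1, had log2 ratios of -0.80, -1.30 and -0.20 in the same order of arrays (Lamtor1-deficient, Torin1-treated, M1). Hist1h1t, which encodes the testis form of H1, had 0.0777 to 0.0911 in the IL-4 cultures and was 4.59-fold above M2 in M1, at 0.418. Hist1h1d, which encodes H1.3, was not well above background on any array, and no fold is given.

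The promoters of Hist1h1b and Hist1h1e are shown because these genes of one class shared the direction in Lamtor1-deficient BMDMs and differed in direction in the other 2 comparisons. They are the 250 bases before the RefSeq start, on the minus strand of GRCm38.p6 at chr13:21780626-21780875 and chr13:23622559-23622808. Capitals mark the CCAAT box, the TATA box (searched as TATAAA) and the H1 box (searched as AAACACA), each on either strand. The first 2 are general promoter motifs, and the last is known from H1 promoters.
Hist1h1b: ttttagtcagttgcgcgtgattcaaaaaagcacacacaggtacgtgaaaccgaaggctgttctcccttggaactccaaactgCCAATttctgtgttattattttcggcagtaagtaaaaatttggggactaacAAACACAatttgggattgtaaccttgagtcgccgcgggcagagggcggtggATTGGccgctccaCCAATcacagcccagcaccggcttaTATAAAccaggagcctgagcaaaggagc
Hist1h1e: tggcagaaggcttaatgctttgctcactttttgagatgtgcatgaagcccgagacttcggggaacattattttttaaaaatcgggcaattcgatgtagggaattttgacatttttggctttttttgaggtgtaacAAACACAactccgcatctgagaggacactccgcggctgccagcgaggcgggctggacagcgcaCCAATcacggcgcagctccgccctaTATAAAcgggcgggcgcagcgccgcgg
All 3 motifs were found in both promoters. Counting both strands, AAACACA was found in 5 of 6 H1 promoters and in 6.22% of all 27025 promoters in the table, and in 9 of the 43 member promoters matched. CCAAT was found in 35 of the 43 (34.5% of all promoters) and TATAAA in 22 (13.0%). CCAAT was found in all 14 H2A and all 9 H2B promoters and in 2 of 8 H4 promoters. The octamer ATTTGCAT was found in 7 of 14 H2A and 5 of 9 H2B promoters, in none of H1, H3 or H4, and in 1.61% of all promoters. These are matches of letters, and binding was not measured.

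The H2A genes split into probes that hardly moved and a few that did. The class median was -0.20 in Lamtor1-deficient, 0.06 in Torin1-treated and 0.77 in M1 BMDMs, and the M1 median was -0.05 with arrays shifted to their median. Over the other settings the Torin1 median lay between -0.19 and 0.15. Hist1h2ah, whose probe reads the shared coding end printed above, had 135 in M2, 109 in Lamtor1-deficient, 134 in Torin1-treated and 229 in M1 BMDMs. Hist1h2af, Hist1h2ak, Hist2h2aa2 and Hist2h2ac were read by probes of the same kind. Their ratios lay between -0.25 and -0.02 in Lamtor1-deficient, between 0.06 and 0.29 in Torin1-treated and between 0.71 and 0.81 in M1 BMDMs. Hist1h2an, whose probe is also of this kind, lay outside these ranges, at -0.75, -0.43 and 0.56. Such probes sum over copies, so a change of 1 copy may not show. The probes of Hist1h2ah, Hist1h2af, Hist1h2ak, Hist2h2aa2 and Hist2h2ac also share a run of at least 20 bases with a probe of H2afj, a replacement histone. H2afj had 165 in M2, 172 in Lamtor1-deficient, 220 in Torin1-treated and 329 in M1 BMDMs, and its part in these signals was not tested. Hist1h2ab, read by a probe of 1 gene, had 6.85 in M2, 2.41 in Lamtor1-deficient, 1.25 in Torin1-treated and 8.58 in M1 BMDMs. Its M1 log2 ratio was 0.32, or -0.50 with arrays shifted to their median. It was 2.85-fold lower in Lamtor1-deficient and 5.47-fold lower in Torin1-treated BMDMs than in M2. Hist1h2ag, whose probe holds both part of the shared end and AATAAA, had 63.2 in M2, 28.2 in Lamtor1-deficient, 35.6 in Torin1-treated and 89.8 in M1 BMDMs. It was 2.24-fold lower in Lamtor1-deficient BMDMs and 1.78-fold lower in Torin1-treated BMDMs.

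Hist1h2ae had 0.197 in M2, 0.0876 in Lamtor1-deficient, 0.131 in Torin1-treated and 0.0938 in M1 BMDMs, and so was highest in M2. Its M1 log2 ratio of -1.07 became 0.068 with normexp background correction. Hist1h2an was 1.68-fold lower in Lamtor1-deficient and 1.35-fold lower in Torin1-treated BMDMs. Hist3h2a, in the small cluster on chromosome 11, had 20.9 in M2, 20.9 in Lamtor1-deficient, 21.8 in Torin1-treated and 38.5 in M1 BMDMs, and its 3 IL-4 arrays lay within the technical error. Hist2h2aa1, read by a stem-loop probe, had 32.4, 32.7, 47.8 and 69.1 in the order M2, Lamtor1-deficient, Torin1-treated and M1. Hist1h2ac was not well above background in M2 or Lamtor1-deficient BMDMs and was at least 12.2-fold higher in M1 than in M2. Hist1h2aa, a testis form of H2A, had log2 ratios of 0.27, 0.08 and 1.05.

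The H2B class held the largest ratios among the members in Lamtor1-deficient and M1 BMDMs. Its median was -0.25 in Lamtor1-deficient, 0.15 in Torin1-treated and 1.29 in M1 BMDMs, and all 12 members were above 0 in M1, though not with arrays shifted to their median. Over the other settings the Torin1 median changed sign, from -0.09 to 0.24. Hist3h2ba had 0.179 in M2, 0.842 in Torin1-treated and 4.88 in M1 BMDMs, and its probe was not well above background in Lamtor1-deficient BMDMs. It was at least 4.79-fold lower in Lamtor1-deficient, 4.70-fold higher in Torin1-treated and 27.2-fold higher in M1 BMDMs than in M2. The adjacent gene Hist3h2bb-ps was well above background only in M1. Hist2h2be had 1.63 in M2, 0.654 in Lamtor1-deficient, 3.099 in Torin1-treated and 2.76 in M1 BMDMs. It was 2.49-fold lower in Lamtor1-deficient and 1.90-fold higher in Torin1-treated BMDMs. Hist2h2bb, read by a stem-loop probe, had 0.234, 0.295, 0.508 and 1.04 in the order M2, Lamtor1-deficient, Torin1-treated and M1.

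Hist1h2bc, Hist1h2bm and Hist1h2ba showed another order, with Torin1-treated BMDMs lowest. Hist1h2bc had 61.1 in M2, 62.8 in Lamtor1-deficient, 36.1 in Torin1-treated and 119 in M1 BMDMs. Hist1h2bm had 24.3, 23.7, 11.9 and 43.6 in the same order, a 2.04-fold lower signal in Torin1-treated BMDMs, and the array annotation lists 4 RefSeq genes for its probe. Hist1h2ba, which encodes the testis form of H2B, had 13.5, 12.8, 7.87 and 25.3. In these 3 genes Lamtor1-deficient BMDMs lay within the technical error of M2. Hist1h2bq was well above background only in M1, where it was at least 18.5-fold higher than in M2. The 4 remaining genes with ratios on bright probes, Hist1h2bb, Hist1h2be, Hist1h2bg and Hist1h2bp, had log2 ratios from -0.83 to 0.17 in Lamtor1-deficient, from -0.75 to 0.53 in Torin1-treated and from 1.00 to 1.43 in M1 BMDMs.

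The H3 genes had the lowest class median in Torin1-treated BMDMs, -1.15, with 4 of 8 at least 2-fold lower and 0 higher, against 11.9% and 14.3% of all genes. Among the 6 well above background on both arrays, 2 were lower and 0 higher, against 13.2% and 12% of all such genes, and their median was -0.65. It ranged from -1.40 to -0.35 over the other settings. The class median was -0.42 in Lamtor1-deficient (-0.51 to -0.099 over the other settings) and 1.22 in M1 BMDMs (0.40 to 1.22). The M1 median was -0.52 for the 4 H3 probes of 1 gene and 1.93 for the 4 shared by copies. Hist2h3c1 had 1.41 in M2, 0.987 in Lamtor1-deficient, 0.523 in Torin1-treated and 0.990 in M1 BMDMs, which made it 2.70-fold lower in Torin1-treated BMDMs. Hist2h3c2-ps is a pseudogene by its array symbol, but it matched the RefSeq gene H3c15, for which the Hist2h3c1 probe was also listed. Hist2h3c2-ps had 3.64 in M2, 3.70 in Lamtor1-deficient, 0.779 in Torin1-treated and 0.490 in M1 BMDMs. It was thus level between M2 and Lamtor1-deficient BMDMs and 4.67-fold and 7.42-fold lower on the other 2 arrays. Hist1h3d had 58.9 in M2, 46.7 in Lamtor1-deficient, 48.5 in Torin1-treated and 363 in M1 BMDMs, with log2 ratios of -0.34 and -0.28 in the first 2 comparisons and a signal 6.17-fold above M2 in M1. Its probe is listed for 4 RefSeq genes. Hist1h3c and Hist1h3f, whose probes share 36 bases, were 3.86-fold and 3.78-fold above M2 in M1. Of the stem-loop probes, Hist1h3a was well above background only in M1, Hist1h3g only in M2, and Hist1h3i on every array but that of Lamtor1-deficient BMDMs.

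Of the 9 H4 genes, which encode the same protein, 6 were lower in Lamtor1-deficient and higher in Torin1-treated BMDMs. With arrays shifted to their median, Hist1h4c moved from 0.22 to -0.025 in Torin1-treated BMDMs. The class median was -0.99 in Lamtor1-deficient, 0.55 in Torin1-treated and 0.86 in M1 BMDMs. Over the other settings it ranged from -1.06 to -0.68 in Lamtor1-deficient from 0.30 to 0.66 in Torin1-treated and from 0.036 to 0.89 in M1 BMDMs, and all 9 probes were well above background on all 4 arrays. Hist1h4k had 21.1 in M2, 10.6 in Lamtor1-deficient, 32.7 in Torin1-treated and 35.6 in M1 BMDMs. Hist2h4 had 16.5, 7.83, 24.1 and 28.8 in the same order, and Hist4h4 had 4.12, 2.01, 6.42 and 7.46. Hist1h4d had 8.46, 4.14, 12.6 and 15.7, and Hist1h4j had 0.729, 0.272, 1.02 and 1.26. Hist1h4c had 0.340, 0.175, 0.397 and 1.05. These 6 genes had log2 ratios from -1.42 to -0.96 in Lamtor1-deficient and from 0.22 to 0.64 in Torin1-treated BMDMs. The probes of Hist1h4c, Hist1h4d, Hist1h4j and Hist1h4k were each listed for several H4 genes, so these values are not independent. That of Hist2h4 was listed for 1 gene, and that of Hist4h4 for 1 named gene and 1 accession without a match.

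Hist1h4h, Hist1h4i and Hist1h4m, each read by a probe of 1 gene, did not have this order. Hist1h4h had 0.194 in M2, 0.272 in Lamtor1-deficient, 1.54 in Torin1-treated and 0.272 in M1 BMDMs. It was 7.95-fold higher in Torin1-treated BMDMs than in M2, the largest ratio above 0 of any member in that comparison. Hist1h4m, read by a stem-loop probe, had 0.0466, 0.0470, 0.0626 and 0.193 in the same order, and was highest in M1. The 2 bright probes of Hist1h4i gave opposite directions in Lamtor1-deficient BMDMs, with log2 ratios of 0.81 and -0.76. The first of these, the brighter and so the one used, holds a run of 20 bases also found in 2 other probes of the array, counting both strands. The other 2 genes with a second probe well above background were Hist1h2ak, with -0.25 and -1.25 in Lamtor1-deficient BMDMs, and Hist1h4k, with -0.99 and -0.96. Hist2h4 had a second probe that was dim in M2 and Lamtor1-deficient BMDMs, and the mean of its probes put the gene at 0.27 in Lamtor1-deficient BMDMs.

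**Figure D2:**
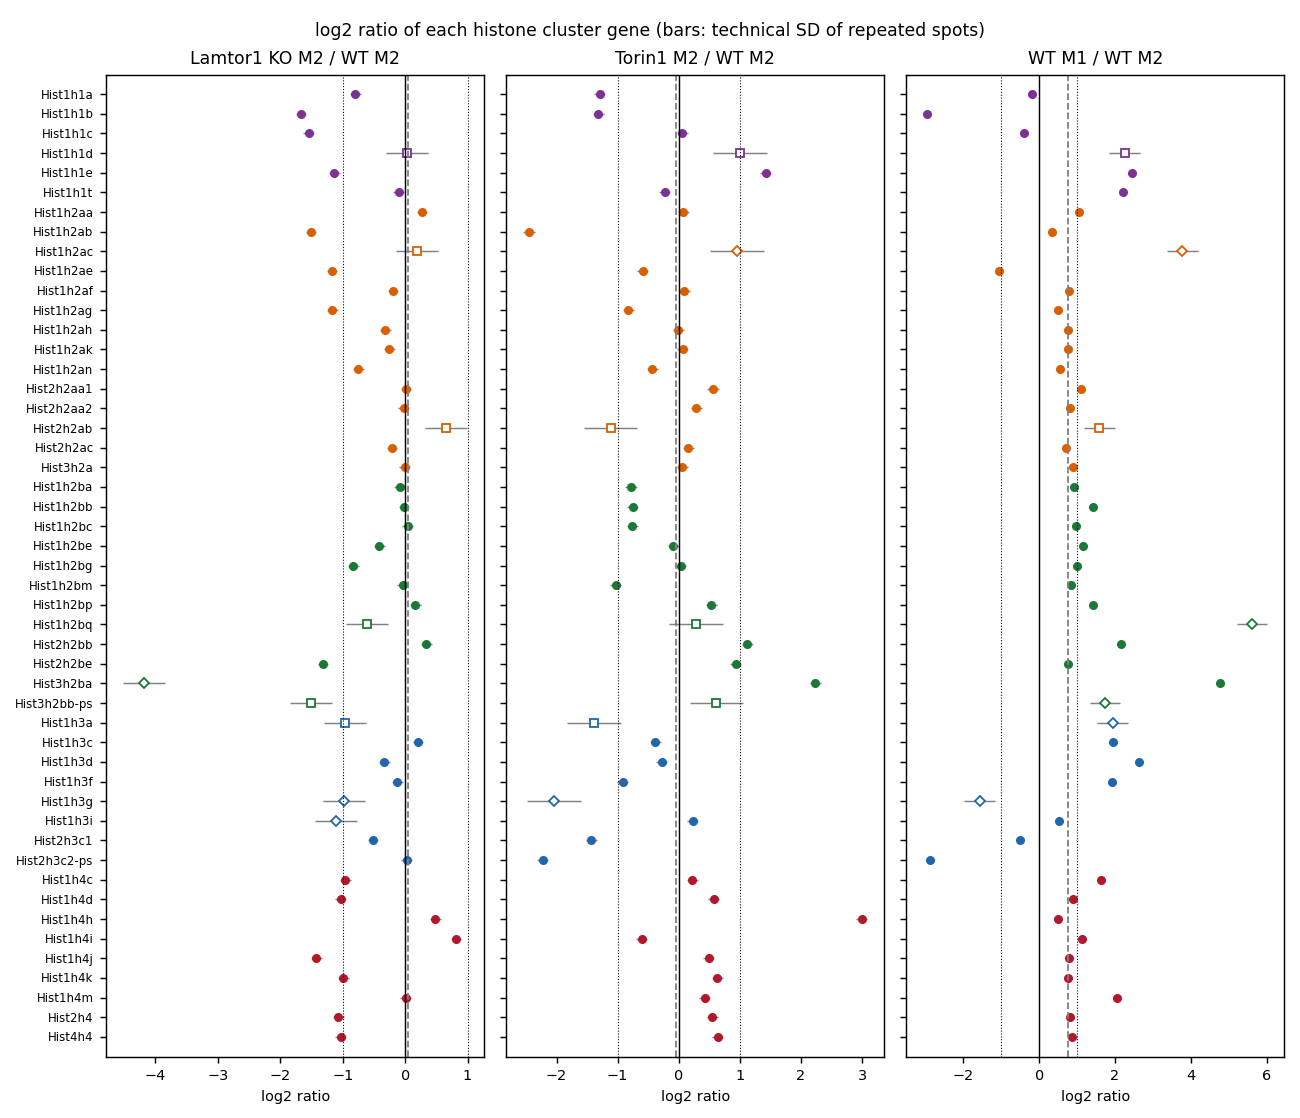
The log2 ratio to M2 of each member in the 3 comparisons, coloured by class, with the technical SD as bars, filled points where the probe was well above background on both arrays, open diamonds where on 1 and open squares where on neither. Dotted lines stand at 2-fold and the dashed line at the median of all genes, which is 0.74 for M1. No member passed the upper dotted line in Lamtor1-deficient BMDMs and 14 passed the lower.

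Set side by side, 2 genes were at least 2-fold lower in both Lamtor1-deficient and Torin1-treated BMDMs, Hist1h1b and Hist1h2ab, against 5.28% of all 23172 genes. Another 2 were at least 2-fold lower in Lamtor1-deficient and higher in Torin1-treated BMDMs, Hist1h1e and Hist3h2ba, against 0.639% of all genes. Both comparisons use the same M2 array, so an error of that array would enter both. By cluster, the median log2 ratio of the 36 Hist1 genes was -0.37 in Lamtor1-deficient, -0.05 in Torin1-treated and 0.93 in M1 BMDMs. That of the 9 Hist2 genes was -0.02, 0.29 and 0.81.

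Ratios differed in spread between the kinds of probe. A probe was counted as shared by copies where it was listed for several RefSeq genes or, without holding the stem-loop, had a run of at least 20 bases in common with another member's probe. This held for 18 genes, counting Hist4h4 for its unmatched accession, and 31 had a probe of 1 gene. Of the 9 genes not well above background on every array, 8 had a probe of 1 gene. In Lamtor1-deficient BMDMs the SD of the log2 ratio over genes was 0.99 for probes of 1 gene and 0.47 for shared probes. In Torin1-treated BMDMs the SDs were 1.23 and 0.62, and in M1 1.61 and 1.29. Over the 23 and 17 genes well above background on all 4 arrays, they were 0.73 and 0.48 in Lamtor1-deficient, 1.18 and 0.63 in Torin1-treated and 1.39 and 0.70 in M1 BMDMs. In Torin1-treated BMDMs, 5 of the 31 genes with a probe of their own were at least 2-fold higher and 7 lower. Of the 18 with a shared probe, 0 were higher and 2 lower. The shares of all genes were 14.3% and 11.9%. Without the genes that were dim on any array, the counts were 3 and 4 of 23 against 0 and 2 of 17. For all genes well above background on both arrays the shares were 12% and 13.2%. The difference between the kinds of probe was not tested. Within H4, the medians of the 5 shared probes were -1.03 for Lamtor1 deficiency and 0.57 for Torin1, and those of the 4 probes of 1 gene were 0.25 and 0.49.

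**Figure D3:**
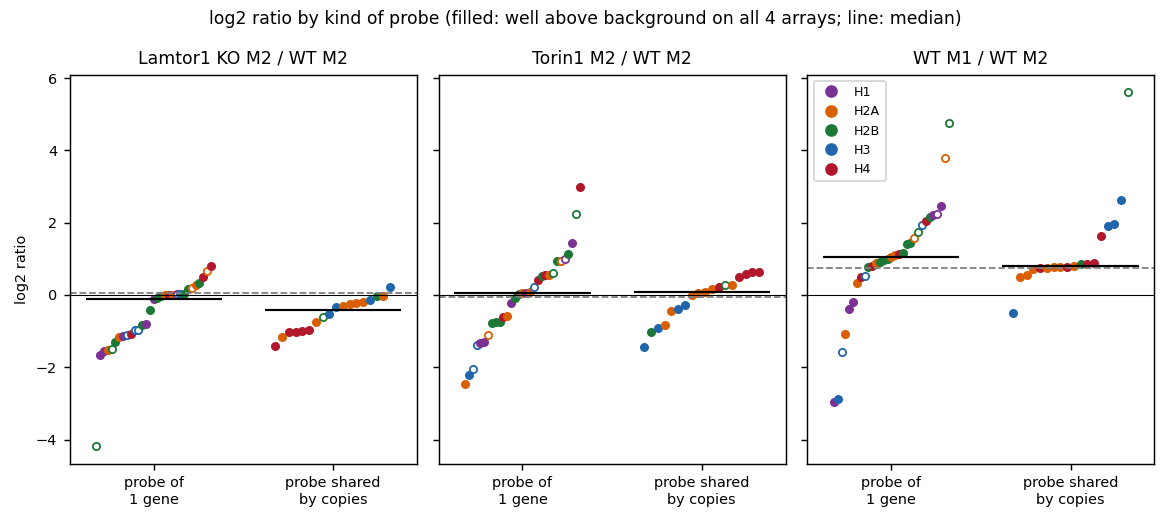
The log2 ratio to M2 of the 49 members by kind of probe, coloured by class, with filled points for probes well above background on all 4 arrays, black lines for medians and a dashed line for the median of all genes. The 18 shared probes lie closer together than the 31 probes of 1 gene in Lamtor1-deficient and Torin1-treated BMDMs, and the H4 genes among them form a tight group near -1 in Lamtor1-deficient BMDMs.

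Genes that accompany histone synthesis were examined as fixed lists, whose counts are to be read against the shares of all genes given above. Slbp, the stem-loop binding protein, had 2.17 in M2, 1.69 in Lamtor1-deficient, 1.53 in Torin1-treated and 2.21 in M1 BMDMs, with log2 ratios of -0.36, -0.51 and 0.03. Npat, the coactivator of histone transcription, was not well above background on any array. In the list of histone mRNA transcription and processing, which holds both, 1 of 15 genes was at least 2-fold higher and 1 lower in Lamtor1-deficient BMDMs, 3 and 3 in Torin1-treated and 3 and 6 in M1 BMDMs. Zfp473, a zinc-finger protein of the histone pre-mRNA complex, had the highest ratio of the list in each comparison, with log2 ratios of 1.34, 1.68 and 1.60. The lowest were Cstf2, a cleavage factor, at -1.07 in Lamtor1-deficient, E2f2, an E2F transcription factor, at -3.101 in Torin1-treated, and Cpsf3, the endonuclease that cuts histone pre-mRNA, at -4.03 in M1 BMDMs.

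The replacement histones, which are made from polyadenylated mRNA, had list medians of -0.19 in Lamtor1-deficient, -0.35 in Torin1-treated and 0.80 in M1 BMDMs, the last becoming -0.025 with arrays shifted to their median. H1f0, the linker histone of non-dividing cells, had 0.192 in M2, 0.171 in Lamtor1-deficient, 1.62 in Torin1-treated and 0.409 in M1 BMDMs. With a log2 ratio of 3.08 it was the only one of the 11 at least 2-fold higher in Torin1-treated BMDMs, and H2afx, the DNA damage variant of H2A, was the only one lower, at -1.40. H1fx was the only one past 2-fold lower in measured signal in Lamtor1-deficient BMDMs, where its probe was not well above background, which leaves a bound of at least 1.71-fold lower. H3f3b, which encodes H3.3, had the largest ratio of the list in M1, at 1.92. In M1, 4 of the 11 were at least 2-fold higher (36.4%) and 0 lower, against 30.7% and 19.4% of all genes.

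Histone chaperones, which carry histones to DNA, had medians of -0.34, 0.02 and -0.83 in Lamtor1-deficient, Torin1-treated and M1 BMDMs, and the Torin1 value became -0.23 with that shift. Asf1b, a chaperone of H3 and H4 in dividing cells, was the lowest in both IL-4 comparisons, at -1.12 and -1.46. It was the only one of 15 past 2-fold in Lamtor1-deficient BMDMs. In Torin1-treated BMDMs 0 were at least 2-fold higher and 2 lower, and in M1 5 were higher and 7 lower, with a median of -1.65 to -0.28 over the other settings. In M1, Asf1a was the highest at 2.97 and Ipo4, an importin for histones, the lowest at -2.67. Of 8 polyadenylation genes, 0 passed 2-fold in Lamtor1-deficient or Torin1-treated BMDMs, and in M1 Fip1l1 was higher at 1.37 and 3 were lower, the lowest being Nudt21 at -1.56.

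S-phase genes had medians below 0 in all 3 comparisons, at -0.46 in Lamtor1-deficient, -0.66 in Torin1-treated and -1.38 in M1 BMDMs. At least 2-fold lower signals were found for 9 of 28 in Lamtor1-deficient, 10 in Torin1-treated and 18 in M1 BMDMs, against 8.74%, 11.9% and 19.4% of all genes. Higher signals were found for 2, 3 and 4, against 8.92%, 14.3% and 30.7%. Mcm5, a subunit of the replicative helicase, was the lowest in Lamtor1-deficient BMDMs at -1.86, Tk1, thymidine kinase, in Torin1-treated BMDMs at -4.39 and Ccna2, cyclin A2, in M1, where its probe was not well above background and it was at least 23.3-fold lower. Dut, a dUTPase, was the highest in Lamtor1-deficient and Torin1-treated BMDMs at 3.49 and 2.21.

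**Figure D4:**
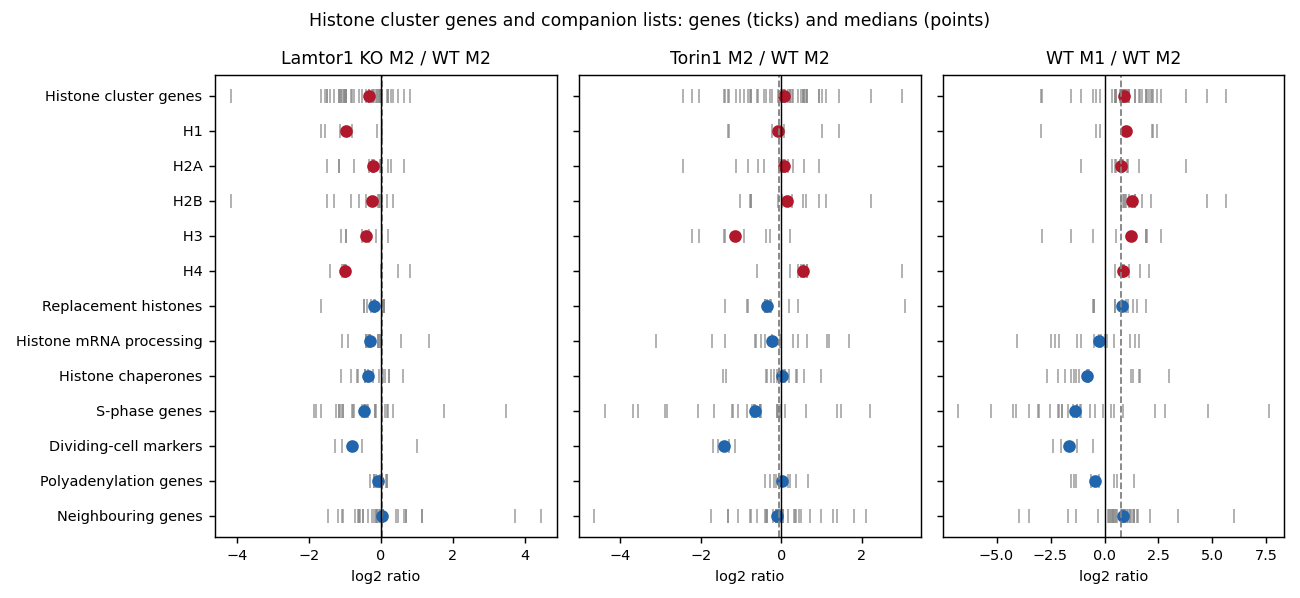
The log2 ratios to M2 of the members, their classes and the companion lists, with 1 tick for each gene, points for medians (red for histone clusters and their classes, blue for other lists) and a dashed line for the median of all genes. In M1 the S-phase median is -1.38 and the histone median 0.89, and in Torin1-treated BMDMs H3 and H4 lie on opposite sides of 0.

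Markers of cell types and cell states were read on the same arrays. All 7 macrophage markers on the array were well above background on all 4 arrays. Of these, Emr1 had log2 ratios of -2.57, -2.81 and -1.04, Cd14 was at -1.86 in Lamtor1-deficient and Csf1r at -1.24 in M1 BMDMs, and the other ratios of the list were within 2-fold. Of the markers of IL-4-stimulated macrophages, Arg1, Retnla and Mrc1 were at least 2-fold lower than M2 on each of the other arrays. Chi3l3 had 488 in M2, 569 in Lamtor1-deficient, 567 in Torin1-treated and 0.0998 in M1 BMDMs. Of the 4 markers of IFN-γ and LPS stimulation, Nos2 had 0.384 in M2, 18.6 in Lamtor1-deficient, 16.5 in Torin1-treated and 581 in M1 BMDMs. Cxcl9 was well above background only in M1, Il6 on every array but M2, and Il12b on none. Of the 4 markers of dividing cells, Mki67, Top2a and Cdk1 were lower in Lamtor1-deficient BMDMs, at -1.07, -1.26 and -0.54, and Ccnb1 was higher, at 1.01. All 4 were at least 2-fold lower in Torin1-treated BMDMs, with a median of -1.43, and 3 of 4 in M1, with a median of -1.66. Their summed normalized signal was 7.24 in M2, 4.97 in Lamtor1-deficient, 2.51 in Torin1-treated and 3.77 in M1 BMDMs, of which Mki67 gave 2.90 in M1. Of 5 markers of neutrophils and their precursors, Mpo, Ngp, Camp and Ltf were at least 2-fold lower than M2 on each of the other arrays, with Ltf at -5.21 under Lamtor1 deficiency and -6.59 under Torin1. The summed signal of the 5 was 23.0 in M2, 19.3 in Lamtor1-deficient and 52.5 in M1 BMDMs, most of it in the latter 2 from Elane, which had no usable spot on the Torin1-treated array, where the other 4 summed to 0.355. The fibroblast list had medians of 0.43, -1.65 and -2.87, and summed to 43.0, 55.2, 15.1 and 15.9 in the order M2, Lamtor1-deficient, Torin1-treated and M1. Its member Dcn went the other way in M1, at 2.55, and gave 9.27 of the sum there. Of 5 lymphocyte markers 2 or 3 were well above background on each array, with sums of 2.01 to 4.05, and of 4 erythroid markers at most 2, with sums of 0.0634 to 0.813. The part of these cells in the histone ratios was not tested, and in such bulk RNA fewer cells of a type and less RNA per cell cannot be told apart.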

How the data were processed

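The deposited scanner files hold intensities of 62976 spots per array. Per the file headers, Agilent Feature Extraction 10.7.3.1 (10.5.1.1 per the labels) subtracted the background and corrected trends within each array, with no scaling between arrays. The table of the whole series, also deposited by the authors, holds the same intensities rounded. As in the methods of the study, signals were floored at 1.0 and each array was scaled to its 75th percentile. Here the percentile was taken over 55681 non-control probes, and dim probes were kept. Spots flagged as outliers and control spots were dropped, repeated spots of a probe were averaged, and ratios were taken on the log2 scale. The 75th percentile was 595 for M2, 536 for Lamtor1-deficient, 470 for Torin1-treated and 287 for M1 BMDMs, and 50.9% to 55.4% of probes were well above background. Depth is given by signal over background only.

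A probe well above background on 1 of the arrays compared gives a bound, "at least", against the lowest such signal of the dimmer array, and on neither array gives no fold. A gene counted as changed at 2-fold. No test could be run on single arrays. The named genes were the members bright on every array, the 5 largest rises and falls of each comparison among members well above background on at least 1 array, members whose probes disagreed by 1 or more on the log2 scale, Lamtor1, Slbp, Npat and the extremes past 2-fold of each companion list. The members and lists were chosen with earlier results of these data known. Of the members, 48 of 49 matched a RefSeq gene. Promoters came from RefSeq (GRCm38.p6) and probe sequences from the array files (mm9). The alternatives were other scalings (median shift, quantile normalization, the percentile over bright probes), normexp background correction with an offset of 50, filters on dim probes, other rules for several probes of a gene, outlier spots kept and the series table. The procedure was tested on simulated data. Normalization alternatives ran in limma 3.58.1 (R 4.3.3), all other steps in pandas 2.3.3 and NumPy 2.4.6 under Python 3.11.15, and plots in matplotlib 3.10.9.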

Additional observations from a re-analysis of the deposited data

How the results depend on the processing

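In all alternatives tried, 0 members were at least 2-fold higher in Lamtor1-deficient BMDMs, and the median of the members was below 0. The median moved to -0.50 with quantile normalization and to -0.20 with normexp background correction. In Torin1-treated BMDMs it moved to -0.19 with a shift to the median and to -0.11 with quantile normalization, while the number of higher genes became 3 with a shift to the median and 3 with normexp, which also left 5 lower. In M1 BMDMs a shift to the median gave 12 higher, 7 lower and a median of 0.068, and normexp left 2 lower. That shift moved the median of all genes from 0.74 to -0.08 in M1 and from -0.05 to -0.30 in Torin1-treated BMDMs. A shift of a whole array cannot change how far the members lie from that median. In M1 their median lay 0.15 above it, but 0.84 above it with quantile normalization. Among genes well above background on both arrays it lay 0.77 above. The cause of the other moves was not tested. Among members and list genes past 2-fold, the direction turned for Hist2h2ab in Torin1-treated BMDMs (0.046), Hist1h2ae in M1 (0.068) and Hist1h3g in M1 (0.42) with normexp, and for Hist2h4 in Lamtor1-deficient BMDMs (0.27) and Hjurp in M1 (0.031) with the mean over all probes. Among smaller ratios, the shift to the median turned the sign of 14 of 49 members in M1, 5 of them past the technical SD on both sides (Hist1h2ab, Hist1h2ag, Hist1h2an, Hist1h3i and Hist1h4h, for example from 0.49 to -0.33 for Hist1h4h), and of 9 in Torin1-treated and 4 in Lamtor1-deficient BMDMs, 0 of them past it. Elsewhere Hist1h2bq in Torin1-treated and Hist1h3i in M1 BMDMs with quantile normalization and Hist1h1a in M1 with normexp also turned past it. Of 150 class medians recomputed, 110 moved by less than the technical SD, as did 1188 of 1434 ratios of single members.

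No paired analysis was possible because each condition had 1 array, and leaving out a replicate was impossible for the same reason. Dim probes limit 9 members, which were not well above background on at least 1 array.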

Other observations

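Of 51 non-histone genes that lie between the first and last gene of the Hist1 cluster on chromosome 13, 11 were well above background in M2, 13 in Lamtor1-deficient, 14 in Torin1-treated and 12 in M1 BMDMs. At least 2-fold higher signals than in M2 were found for 4 and lower signals for 4 in Lamtor1-deficient BMDMs, 4 and 5 in Torin1-treated and 13 and 4 in M1 BMDMs. The shares of all genes were 8.92% and 8.74%, 14.3% and 11.9%, and 30.7% and 19.4%. Among those well above background on both arrays, 0 were higher and 2 lower of 10 in Lamtor1-deficient, 0 and 3 of 11 in Torin1-treated and 5 and 2 of 9 in M1 BMDMs, against 7.88% and 7.75%, 12% and 13.2%, and 25.1% and 25.4% of all such genes. Hfe, the hemochromatosis gene, had a normalized signal of 31.4 in M2, 11.3 in Lamtor1-deficient, 1.26 in Torin1-treated and 2.78 in M1 BMDMs, and so was highest in M2. Btn1a1, a butyrophilin, had 221 in M2, 97.0 in Lamtor1-deficient, 66.3 in Torin1-treated and 462 in M1 BMDMs. Vmn1r197, a vomeronasal receptor gene, was not well above background in M2 and was at least 4.98-fold higher in Lamtor1-deficient BMDMs, and Slc17a1, a phosphate transporter gene, was at least 21.2-fold higher in M1 BMDMs than in M2. Prss16, a serine protease gene, was at least 4.17-fold lower in M1 BMDMs than in M2.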
